A study of Rattus norvegicus with 8 samples.

Results

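Expression of 10 genes of the cyclin D module of the cell cycle was followed across cells captured from rat liver. They are the D-type cyclins Ccnd1, Ccnd2 and Ccnd3, their kinase partners Cdk4 and Cdk6, and 5 genes for proteins that hold these kinases back, Cdkn1b, Cdkn1c, Cdkn2a, Cdkn2b and Cdkn2c. The members were picked by gene name from 36174 gene names on the array. They had 17 probes in all, 15 of which passed the filter on dim signals, so that each of the 10 genes had at least 1 tested probe.

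RNA came from cells cut out of liver sections by laser microdissection (LMD) and was hybridised to 1-colour Agilent rat arrays. Control SHPCs (3 samples) were clusters of small hepatocyte-like progenitor cells from livers of female F344 rats treated with retrorsine (Ret), a plant alkaloid that blocks division of hepatocytes, and then with partial hepatectomy (PH). SHPCs with BM-MCs (3 samples) were clusters from Ret/PH livers that had also received bone marrow-derived mesenchymal cells (BM-MCs) of male F344 donors through the spleen, taken at a single time after transplantation. MHs (2 samples) were mature hepatocytes, which the labels place in the recipients' control livers. All recipients thus shared Ret and PH. According to the labels the F344 animals carried DPPIV, an enzyme used to trace donor cells, whereas the study's methods give the recipients as the strain that lacks it. No label links samples to individual rats, so that the p-values reflect variation among captured samples, part of which may be technical.

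D-type cyclins bind CDK4 and CDK6, and the active kinases phosphorylate the retinoblastoma protein, which releases E2F transcription factors and lets a cell enter the S phase. The INK4 inhibitors, which Cdkn2a, Cdkn2b and Cdkn2c encode, bind CDK4 and CDK6 and displace the cyclin. The CIP/KIP inhibitors, which Cdkn1b and Cdkn1c encode, bind cyclin-CDK complexes, block cyclin E-CDK2 and can also serve as assembly factors for cyclin D-CDK4. In liver, cyclin D1 is the D-type cyclin that is induced when hepatocytes leave quiescence after PH. Cdkn2a, which also encodes the ARF protein from another reading frame, and its neighbour Cdkn2b are known for their rise in senescent cells.

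The sequences of 2 probes are given, for the genes with the widest differences between groups. The Cdkn2c probe lies on chromosome 5 from 131013102 to 131013161 on the minus strand in the array's own annotation (its build is named in none of the sources), and the second probe of Ccnd1 lies on chromosome 1 from 205361630 to 205361689 on the minus strand. Both have a reading frame with no stop codon over their whole length, and no base is in capitals.

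Cdkn2c probe: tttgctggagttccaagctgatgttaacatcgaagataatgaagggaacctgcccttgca

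Ccnd1 second probe: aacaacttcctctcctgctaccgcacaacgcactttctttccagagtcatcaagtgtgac

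Promoters of 6 of the 10 genes were held in the RefSeq table for the rat build GRCr8, each covering 250 bases before to 50 bases after the start of the gene. They are shown for Cdkn2c and Cdk4, the members that held a match to a motif searched for. In Cdkn2c (chr5:129644842-129645141, minus strand) the capitals mark the 1 match to an E2F motif, TTCCCGC or TTGGCGC on either strand, which began at base 8 of the gene. In Cdk4 (chr7:64771203-64771502, plus strand) they mark the 3 matches to CACGTG, the E box that Myc binds, which reads the same on both strands.

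Cdkn2c promoter: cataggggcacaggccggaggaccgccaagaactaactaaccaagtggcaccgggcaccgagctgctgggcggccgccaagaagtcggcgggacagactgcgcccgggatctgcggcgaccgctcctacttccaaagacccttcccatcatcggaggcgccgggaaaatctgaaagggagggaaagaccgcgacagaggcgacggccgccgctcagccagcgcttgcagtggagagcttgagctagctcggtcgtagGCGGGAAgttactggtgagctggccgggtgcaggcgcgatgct

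Cdk4 promoter: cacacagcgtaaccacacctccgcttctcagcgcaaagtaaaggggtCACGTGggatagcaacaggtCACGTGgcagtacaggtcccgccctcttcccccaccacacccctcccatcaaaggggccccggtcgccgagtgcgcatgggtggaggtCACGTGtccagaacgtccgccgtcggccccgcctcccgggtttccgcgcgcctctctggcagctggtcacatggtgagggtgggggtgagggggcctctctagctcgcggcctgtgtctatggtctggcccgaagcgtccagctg

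Cdkn2c was the 1 promoter among the 6 with an E2F match, and 6.26% of the 33469 promoters in the table had one. Cdk4 was the 1 with an E box, and 6.42% of all promoters had at least 1 and 0.0568% at least 3. Among proliferation genes, 3 of 12 promoters in the table had an E2F match, and among genes of the retinoblastoma and E2F axis 5 of 11. A match is a run of letters and not evidence of binding.

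Levels are given as log2 of the scanner's processed signal relative to the 75th percentile of the array, so that a value of 0 lies at that percentile and a difference of 1 is a 2-fold change. Between 57.0% and 61.5% of gene spots with marks were well above background, and precision is limited by how few arrays each group had. The MHs and control SHPC replicates 1 and 2 lay in the first set of 4 arrays of the slide, and control SHPC replicate 3 and all SHPCs with BM-MCs in the second, so that MHs and SHPCs with BM-MCs shared no set. All 10 hepatocyte markers were detected on the 7 arrays whose marks were complete, and their summed level overlapped between groups (929 to 987 in MHs, 916 to 1067 in control SHPCs and 844 to 1025 with BM-MCs, in units of the 75th percentile). Of the other cells a section can hold, 7 of 7 Kupffer cell markers were above background, with sums of 56.0 to 65.0 in MHs, 30.4 to 44.2 in control SHPCs and 38.9 to 56.7 with BM-MCs. Granulocyte markers summed to 0.410 and 1.52 in the MHs, 1.17 to 1.59 in control SHPCs and 0.387 to 0.502 with BM-MCs, with Mpo, Elane and Csf3r below background on every array. Cholangiocyte sums were 0.292 to 0.359 in MHs, 0.430 to 0.466 in control SHPCs and 0.427 to 0.549 with BM-MCs. Stellate cell sums were 5.88 to 6.11 in MHs, 4.47 to 4.89 in control SHPCs and 4.19 to 6.62 with BM-MCs (Lum below background). In Kupffer and stellate cell sums the MHs thus lay above the controls, as they did for Ccnd1 and Cdkn1c. In cholangiocyte sums they lay below the controls, as for Cdkn2c. Lymphocyte sums lay between 0.863 and 1.24 in groups that overlapped (Cd3e and Ms4a1 below background). Endothelial sums were 16.6 to 19.9 in MHs, at most 17.1 in control SHPCs and 17.2 to 18.4 with BM-MCs. Erythroid sums were 0.924 to 1.92 in MHs, 1.36 to 5.67 in control SHPCs and 0.710 to 0.944 with BM-MCs. Their part in the differences below was not tested, and fewer cells of a type and less RNA per cell cannot be told apart in such samples.

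The first comparison asks how the progenitor clusters differed from MHs in this module. Cdkn2c was the 1 gene of the 10 to pass in limma (adjusted p = 0.049), with a fitted difference of 2.46 on the log2 scale, higher in control SHPCs. It was not well above background in 1 of the 2 MHs, and the difference was 2.17 with dim spots at a floor. The difference was 0.96, and did not pass, with normexp, a setting that also applied quantile normalization and left out control replicate 2. Ccnd1 and Cdkn1c lay lower in every control SHPC sample than in either MH sample and did not pass. Of the 23111 probes tested, 0.917% passed as higher and 0.216% as lower, against 1 and 0 of the 10 members. At an unadjusted p under 0.05, 1 member was higher and 2 were lower (Ccnd1 and Cdkn1c), with 8.21% and 11% of all probes. Every control SHPC sample lay above both MHs for 4 members (Ccnd3, Cdk4, Cdkn1b and Cdkn2c) and below both for 3 (Ccnd1, Ccnd2 and Cdkn1c), and the same held for 18.7% and 22.7% of all probes. The median difference of the 10 members was 0.073, and that of all probes was -0.032.

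**Figure D1:**
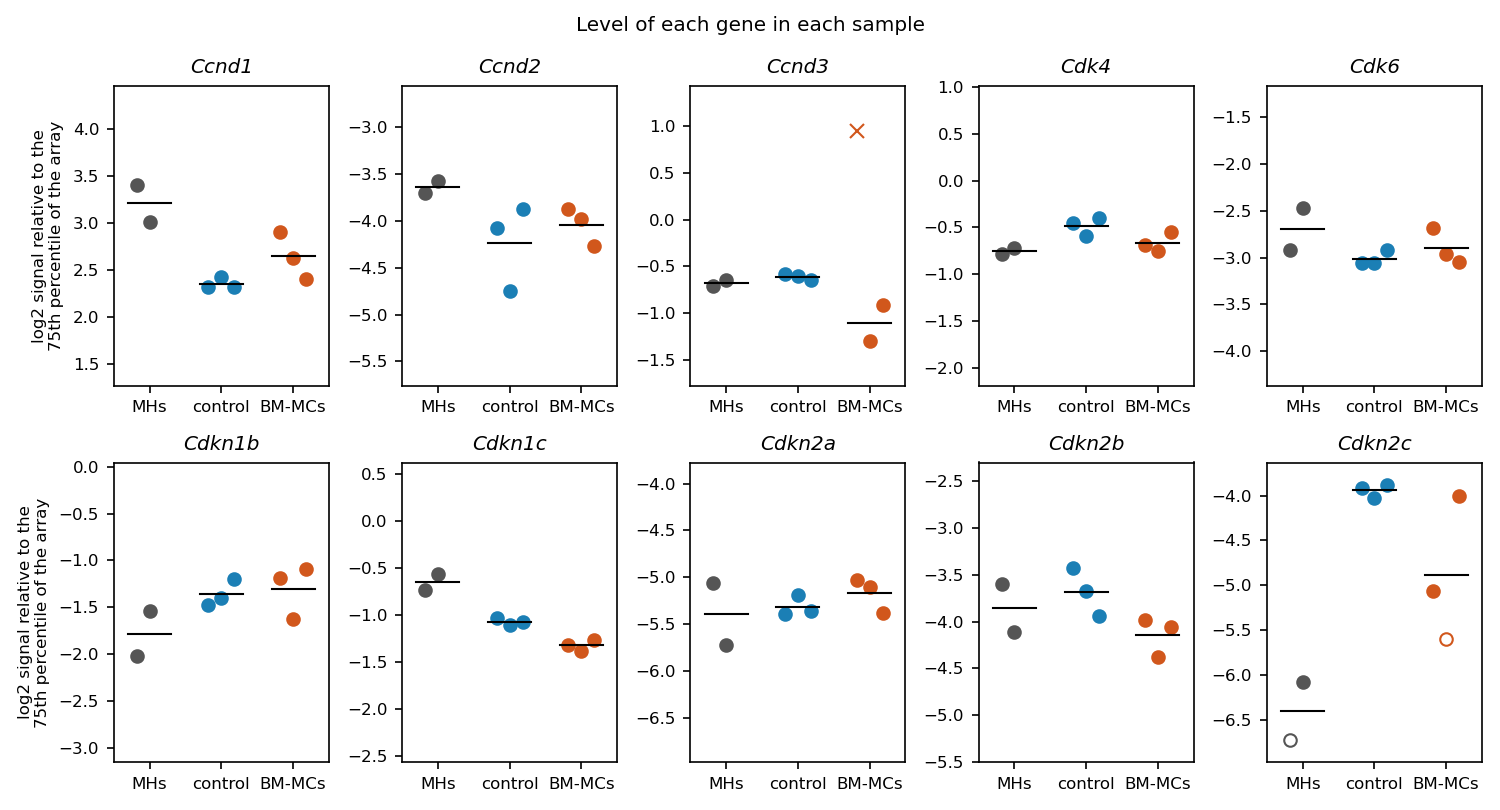
Level of each of the 10 genes, by its brightest tested probe, in the 2 MHs, 3 control SHPC and 3 BM-MC samples (y axis, log2 signal relative to the 75th percentile of the array, with at least the same span in every panel). Points are samples, bars are group means, open points were not well above background, and the cross in Ccnd3 is the spot marked as an outlier, at 0.95, which no mean includes. The 3 control SHPCs sit between -4.03 and -3.88 for Cdkn2c, above both MHs and above every BM-MC sample but replicate 3 (-4.01).

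SHPCs with BM-MCs were compared with MHs in the same fit. None of the 10 passed (0.32% of all probes passed as higher and 0.0173% as lower). At an unadjusted p under 0.05, 1 was higher (Cdkn2c) and 3 were lower (Ccnd1, Ccnd3 and Cdkn1c), with 7.33% and 5.95% of all probes. Of the 9 members with a value in every sample, Cdkn2c was higher and Ccnd1, Ccnd2 and Cdkn1c were lower in every BM-MC sample than in both MHs, with 16% and 16.3% of all probes. The median difference was -0.24, and 0.0030 over all probes.

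The comparison for transplantation was made among the SHPCs. Control replicates 1 and 2 lay in the first slide set and the other SHPC samples in the second. Slide set and transplantation were thus partly mixed. None of the 10 members passed in SHPCs with BM-MCs set against control SHPCs, where limma called 0.0216% of all probes higher and 0% lower. At an unadjusted p under 0.05, 0 members were higher and 4 were lower (Ccnd3, Cdkn1c, Cdkn2b and Cdkn2c), against 10.7% and 5.92% of all probes. Of 9 members, 0 were higher and 2 lower (Cdkn1c and Cdkn2b) in every BM-MC sample, and 13% of all probes were higher and 11.6% lower in this way. The median difference was -0.062, and 0.018 over all probes. These comparisons share samples, so that their values are set side by side and their overlap is no further evidence.

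**Figure D2:**
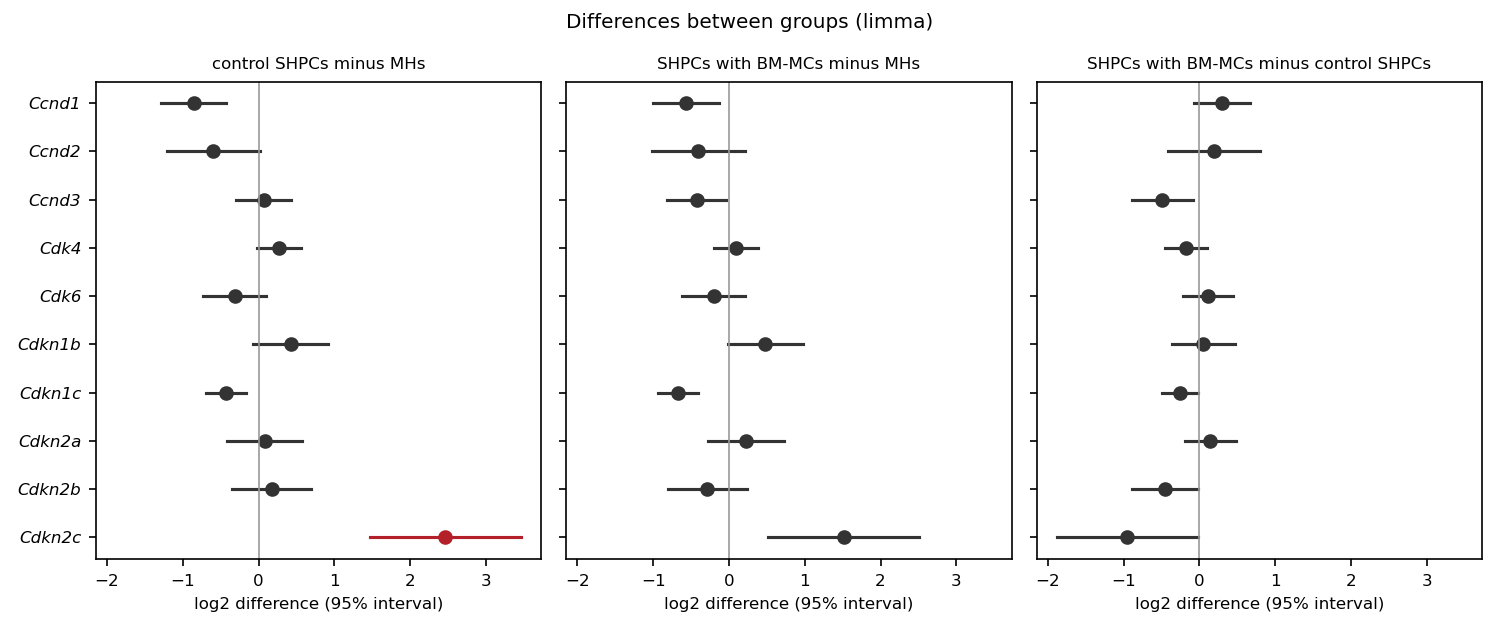
Log2 difference of each of the 10 genes in the 3 comparisons between groups (points), with the 95% interval from limma (lines); the x axis is the same in each panel. Cdkn2c in control SHPCs minus MHs, at 2.46 with an interval from 1.47 to 3.46, is in red as the 1 difference with an adjusted p under 0.05.

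Among the cyclins, Ccnd1, the D-type cyclin of dividing hepatocytes, was highest in MHs. Its probe with 10 spots read 3.41 and 3.01 in the MHs, 2.32, 2.42 and 2.32 in control SHPCs, and 2.91, 2.63 and 2.40 with BM-MCs. Control SHPC samples lay close together and below both MHs, and the BM-MC samples spread from near the controls up to near the MHs. The difference was -0.86 (standard error 0.19, adjusted p = 0.092 in limma) in control SHPCs minus MHs and -0.56 (standard error 0.19, adjusted p = 0.31 in limma) with BM-MCs minus MHs, the latter -0.37 without MH replicate 1. SHPCs with BM-MCs minus control SHPCs was 0.29, with a 95% interval from -0.077 to 0.66 (adjusted p = 0.38 in limma). It was 0.16 without BM-MC replicate 1 and 0.10 with median scaling.

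The second Ccnd1 probe, whose sequence is given above, gave the same order of the group means. It read 1.72 and 1.36 in the MHs, 0.79, 0.69 and 0.74 in control SHPCs, and 1.24, 1.03 and 0.81 with BM-MCs. Here every BM-MC sample lay above every control, by 0.28 on average (95% interval -0.049 to 0.62, adjusted p = 0.36 in limma), and the difference of control SHPCs from MHs was -0.80 (standard error 0.17, adjusted p = 0.084 in limma).

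Ccnd2, another D-type cyclin, read -3.71 and -3.57 in the MHs, -4.07, -4.75 and -3.87 in control SHPCs, and -3.87, -3.98 and -4.27 with BM-MCs. Both MHs were above all SHPC samples, by 0.40 to 0.59 on average, and neither difference passed (adjusted p = 0.27 for control SHPCs and adjusted p = 0.53 with BM-MCs, both in limma). Control SHPC replicate 2 was the lowest sample, and without it the controls differed from MHs by -0.33 (-0.19 with normexp). With the slide set as a block the BM-MC samples differed from MHs by -0.94.

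Ccnd3, the remaining D-type cyclin, was at like levels in MHs and controls. It read -0.71 and -0.64 in the MHs and -0.58, -0.60 and -0.64 in control SHPCs. BM-MC replicates 2 and 3 read -1.30 and -0.91, below all of these, while the spot of replicate 1 was marked as an outlier by the scanner software and left out. With BM-MCs minus control SHPCs, the difference was therefore -0.49 over 2 against 3 samples (standard error 0.16, adjusted p = 0.25 in limma), and -0.30 without BM-MC replicate 2. The marked spot read 0.95, and with it the difference was 0.19 (adjusted p = 0.88 in limma), so that the direction rests on this spot.

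Both kinase genes were close to flat. Cdk4 read -0.78 and -0.72 in the MHs, -0.46, -0.59 and -0.40 in control SHPCs, and -0.69, -0.75 and -0.54 with BM-MCs. Each control SHPC was above both MHs by a mean of 0.27 (95% interval -0.020 to 0.56, adjusted p = 0.29 in limma), and the BM-MC samples overlapped with both groups. Cdk6, the partner of D-type cyclins best known from blood cells, read -2.92 and -2.48 in the MHs, -3.06, -3.06 and -2.91 in control SHPCs, and -2.68, -2.96 and -3.05 with BM-MCs. The 3 groups overlapped, and the 2 further Cdk6 probes gave differences of -0.13 and 0.041 for control SHPCs minus MHs, where the brightest gave -0.31 (-0.54 without MH replicate 1 and -0.093 without MH replicate 2).

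Of the CIP/KIP inhibitors, Cdkn1c, an imprinted gene for Kip2, stood in 3 separate steps. It read -0.73 and -0.56 in the MHs, -1.04, -1.10 and -1.08 in control SHPCs, and -1.32, -1.38 and -1.27 with BM-MCs. Every control lay below both MHs, and every BM-MC sample lay below every control. The difference was -0.68 (standard error 0.11, adjusted p = 0.078 in limma) with BM-MCs minus MHs, -0.43 (standard error 0.11, adjusted p = 0.13 in limma) in control SHPCs minus MHs, and -0.25 (95% interval -0.49 to -0.013, adjusted p = 0.29 in limma) between the SHPC groups. None passed, and the last was -0.44 with median scaling and -0.16 with both probes averaged. The other Cdkn1c probe read -2.01 and -1.87, then -2.28, -2.21 and -2.28, then -2.19, -2.40 and -2.40 in the same order of samples, with the MHs again highest and the SHPC groups overlapping.

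Cdkn1b, which encodes Kip1, the inhibitor degraded as cells enter the cycle, read -2.02 and -1.54 in the MHs, -1.48, -1.40 and -1.19 in control SHPCs, and -1.19, -1.62 and -1.09 with BM-MCs. Control SHPCs were above both MHs by a mean of 0.42 (95% interval -0.073 to 0.92, adjusted p = 0.32 in limma), and on the second probe by 0.27 (adjusted p = 0.32 in limma). On the first probe the difference was 0.19 without MH replicate 1 and 0.66 without MH replicate 2. The 2 probes differed in sign between the SHPC groups, at 0.054 and -0.15, with neither past the threshold (adjusted p = 0.89 and adjusted p = 0.45 in limma).

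Cdkn2c, which encodes the inhibitor Ink4c, had the widest range of group means among the 10 genes. It read -6.73 and -6.08 in the MHs, -3.91, -4.03 and -3.88 in control SHPCs, and -5.06, -5.59 and -4.01 with BM-MCs. The 2 MHs were lowest, and the 3 controls were nearly equal. BM-MC replicate 3 lay among the controls, just above control replicate 2, while BM-MC replicates 1 and 2 lay between these and the MHs. The probe was well above background in 1 of the 2 MHs (replicate 2), in both controls with complete marks, and in BM-MC replicates 1 and 3.

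In control SHPCs minus MHs the difference was 2.46 (standard error 0.43, 95% interval 1.47 to 3.46, adjusted p = 0.049 in limma). With BM-MCs minus MHs it was 1.52 (standard error 0.43, adjusted p = 0.27 in limma), and between the SHPC groups -0.95 (standard error 0.38, adjusted p = 0.29 in limma). The call in control SHPCs minus MHs sat at the threshold and was lost (adjusted p from 0.071 to 0.29 in limma) without MH replicate 1 or 2, without any 1 control or without BM-MC replicate 1, although the difference stayed between 2.14 and 2.79. Blocking on slide set gave 2.43, which did not pass (adjusted p = 0.092 in limma), whereas within the first set alone, which holds both MHs and controls 1 and 2, the same difference passed (adjusted p = 0.032 in limma), a fit chosen after seeing the data. The call was also lost with quantile normalization (adjusted p = 0.063 in limma) and without a filter on dim probes (adjusted p = 0.13 in limma). Within the second set, where control 3 is the 1 control, the BM-MC samples differed from it by -1.01. With dim spots set at a floor, control SHPCs minus MHs was 2.17 (adjusted p = 0.047 in limma). With normexp background correction and quantile normalization, and without control replicate 2, it was 0.96 (adjusted p = 0.12 in limma). In the same settings BM-MCs minus MHs was 1.22 and 0.44, and the difference between the SHPC groups with normexp was -0.52.

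Cdkn2b, the INK4 gene induced by TGF-beta, read -3.60 and -4.11 in the MHs, -3.43, -3.68 and -3.94 in control SHPCs, and -3.98, -4.38 and -4.06 with BM-MCs. Every BM-MC sample lay below every control, by a mean of 0.46 that did not pass (95% interval -0.89 to -0.025 for the difference, adjusted p = 0.29 in limma), and the MHs overlapped with both. Against control 3 alone, on the same slide set, the difference was -0.20. The 2 other Cdkn2b probes were too dim to be tested.

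Cdkn2a was among the dimmest of the tested members and showed no separation of the groups. It read -5.06 and -5.72 in the MHs, -5.40, -5.19 and -5.36 in control SHPCs, and -5.03, -5.10 and -5.38 with BM-MCs. The interval of the difference was -0.42 to 0.58 in control SHPCs minus MHs and -0.19 to 0.48 between the SHPC groups. Which of the INK4 and ARF transcripts the probe reads was not analysed here.

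In some genes, chosen here after their values were seen, the 3 BM-MC samples did not stand together, while on the brighter Cdkn1c probe they did. Replicate 3 lay beside the controls in Cdkn2c and in the first Ccnd1 probe, and the same was seen outside the members in Cdkn1a and Cbx7. Cdkn1a, a CIP/KIP inhibitor and p53 target, read 3.84 and 3.44 in the MHs, 2.61, 2.66 and 2.06 in control SHPCs, and 3.17, 3.20 and 1.94 with BM-MCs. Cbx7, a Polycomb protein that represses the Cdkn2a locus, read -1.55 and -1.48, then -2.37, -2.44 and -2.44, then -1.40, -1.49 and -2.36. In both genes replicates 1 and 2 were near the MHs and replicate 3 at the level of the controls. Without replicate 3, Cdkn2c differed between the SHPC groups by -1.39 (adjusted p = 0.081 in limma), and without replicate 2 by -0.60. Replicate 3 was also the lowest of the SHPCs with BM-MCs in its sums of Kupffer cell (54.1, 56.7 and 38.9 in replicates 1 to 3), stellate cell (6.62, 5.37 and 4.19) and endothelial markers (17.6, 18.4 and 17.2). It was the highest in those of hepatocytes (844, 993 and 1025), cholangiocytes (0.468, 0.427 and 0.549), granulocytes (0.414, 0.387 and 0.502) and erythroid cells (0.720, 0.710 and 0.944), and their part in this spread was not tested.

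Outside the 10 members, 7 lists of genes around the module were read in the same fits. Genes of proliferation were higher in control SHPCs than in MHs, where 11 of 15 passed and all 15 lay above 0 (median difference 2.80). Of all probes, 0.917% passed as higher and 46.2% lay above 0 in that comparison. With the slide set as a block 1 of the 11, Mcm6, did not pass (2.89, adjusted p = 0.052 in limma), and it passed in 11 of 22 other settings and Aurka in 13 of 23. With BM-MCs 6 of 15 passed against MHs (median 1.83), each in 7 to 10 of 22 other settings, and none of the 6 passed with the slide set as a block (differences from 2.23 to 2.65, adjusted p from 0.21 to 0.42 in limma). Between the SHPC groups 0 of 15 passed, with all 15 below 0 with BM-MCs and 12 at an unadjusted p under 0.05 (median -0.88). Of all probes, 52.6% lay above 0 there and 5.92% were lower at that threshold. The median level of the 15 genes was -3.70 and -3.59 in the MHs, -0.34, -0.42 and -0.63 in control SHPCs, and -1.87, -1.05 and -0.90 with BM-MCs. The order of the groups, with the MHs lowest, the controls highest and the BM-MC samples between, was thus that of the Cdkn2c group means. Ccna2, the cyclin of the S and G2 phases, was higher by 3.51 in control SHPCs than in MHs (adjusted p = 0.0025 in limma), and Mki67, which marks cycling cells, by 2.92 (adjusted p = 0.0033 in limma).

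**Figure D3:**
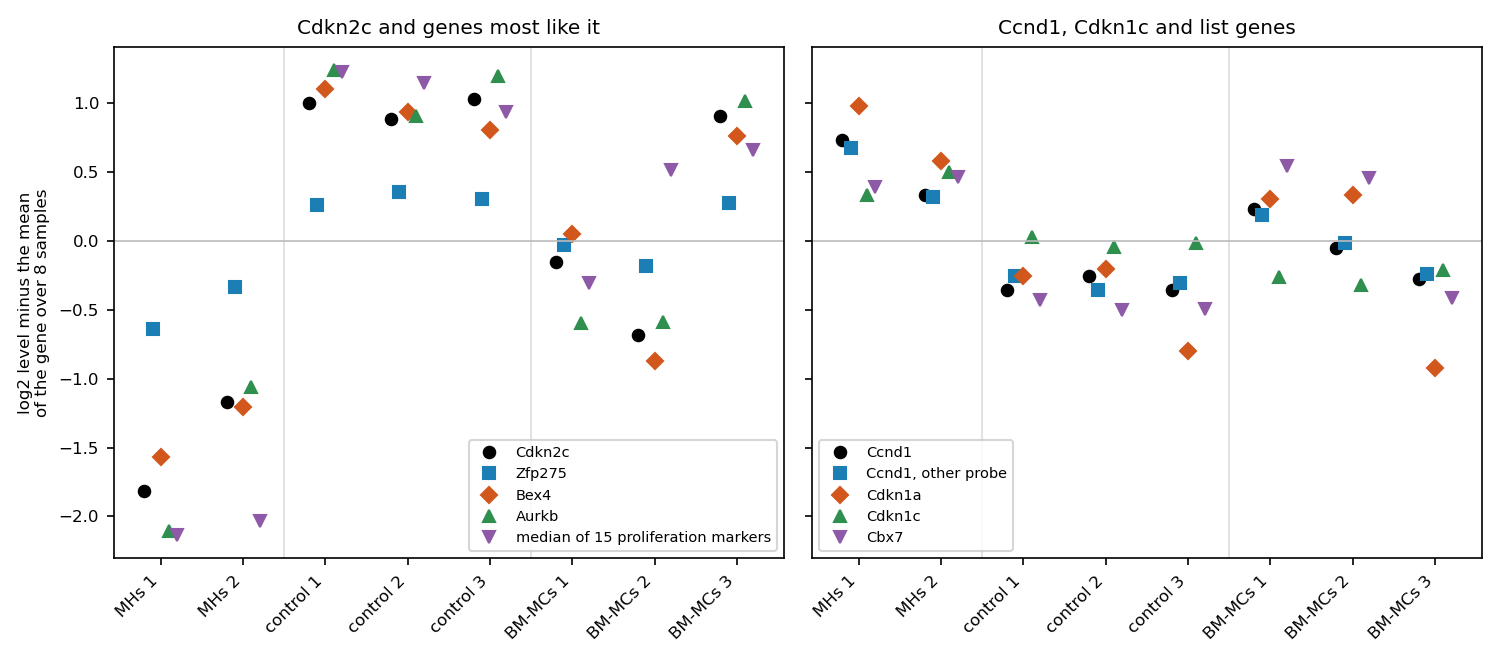
Level in each of the 8 samples (x axis) minus the mean of the gene over those samples (y axis, log2), for Cdkn2c, the 3 genes most like it and the median of the 15 proliferation genes (left), and for both Ccnd1 probes, Cdkn1a, Cdkn1c and Cbx7 (right). Before this centring BM-MC replicate 3 was at -4.01 for Cdkn2c, and it sits with the controls (-4.03 to -3.88), apart from replicates 1 and 2 (-5.06 and -5.59).

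Of the retinoblastoma and E2F axis, 1 of 14 tested genes passed as higher in control SHPCs than in MHs, where 11 lay above 0 and 6 were higher at an unadjusted p under 0.05. In that comparison 46.2% of all probes lay above 0 and 8.21% were higher at the same threshold. None passed with BM-MCs minus MHs or between the SHPC groups. The gene that passed was Ccne2, a cyclin E that acts with CDK2 after the D-type cyclins, which read -5.91 and -4.78 in the MHs, -2.16, -2.09 and -2.63 in control SHPCs, and -3.81, -3.48 and -3.24 with BM-MCs. The 3 groups did not overlap. Ccne2 was higher by 3.06 in controls (standard error 0.35, adjusted p = 0.0090 in limma; 1.80 with normexp) and differed by -1.22 with BM-MCs from controls (adjusted p = 0.13 in limma). E2f1, a factor released by the retinoblastoma protein, was 1.73 above MHs in controls (adjusted p = 0.081 in limma), and Ccne1, the other cyclin E, 0.98 above (adjusted p = 0.098 in limma). Between the SHPC groups 6 of the 14 genes were lower and 1 higher at an unadjusted p under 0.05, with 5.92% and 10.7% of all probes.

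Of the 3 other CDK inhibitors, Cdkn3, a phosphatase that acts on CDKs, was the 1 to pass. It read -5.50 and -5.40 in the MHs, -1.66, -1.66 and -1.61 in control SHPCs, and -3.22, -2.87 and -1.88 with BM-MCs, and again BM-MC replicate 3 was the nearest to the controls. The difference was 3.81 in control SHPCs minus MHs (adjusted p = 0.0043 in limma; 2.45 with normexp) and 2.79 with BM-MCs minus MHs (adjusted p = 0.030 in limma), where it passed in 9 of 22 other settings (adjusted p up to 0.49). Blocked by slide set, which MHs and SHPCs with BM-MCs do not share, the latter was 2.74 and did not pass (adjusted p = 0.30 in limma). Cdkn2d, the fourth INK4 gene, was 0.72 above MHs in controls (adjusted p = 0.13 in limma), and Cdkn1a differed by -1.20 (adjusted p = 0.19 in limma).

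Among genes for the turnover of D-type cyclins and Kip1, 1 of 13 passed in control SHPCs minus MHs, namely Cks2, whose product binds CDKs, at 1.18 (adjusted p = 0.034 in limma), which passed in 11 of 23 other settings (adjusted p up to 0.19). Its relative Cks1b, which takes part in the degradation of Kip1, read 0.14 and 0.024 in the MHs, 0.57, 0.54 and 0.57 in control SHPCs, and 0.067, 0.33 and 0.33 with BM-MCs, so that the controls lay above the others. None of 4 genes for activation and assembly of cyclin D-CDK4, of 10 regulators of the Cdkn2a-Cdkn2b locus, or of 9 regulators upstream of D-type cyclins and Kip1 passed in any of the 3 comparisons. Nearest to it was Foxm1, a factor of the G2 and M phases, at 1.53 in control SHPCs minus MHs (adjusted p = 0.052 in limma). This Foxm1 difference passed in 8 of 23 other settings and ran from 0.97 to 1.62. Myc, which activates Ccnd2 and Cdk4, was above every control in all 3 BM-MC samples (0.62, -0.22 and 0.17 against -0.60, -0.71 and -0.92), with a difference of 0.93 (standard error 0.23, adjusted p = 0.17 in limma).

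**Figure D4:**
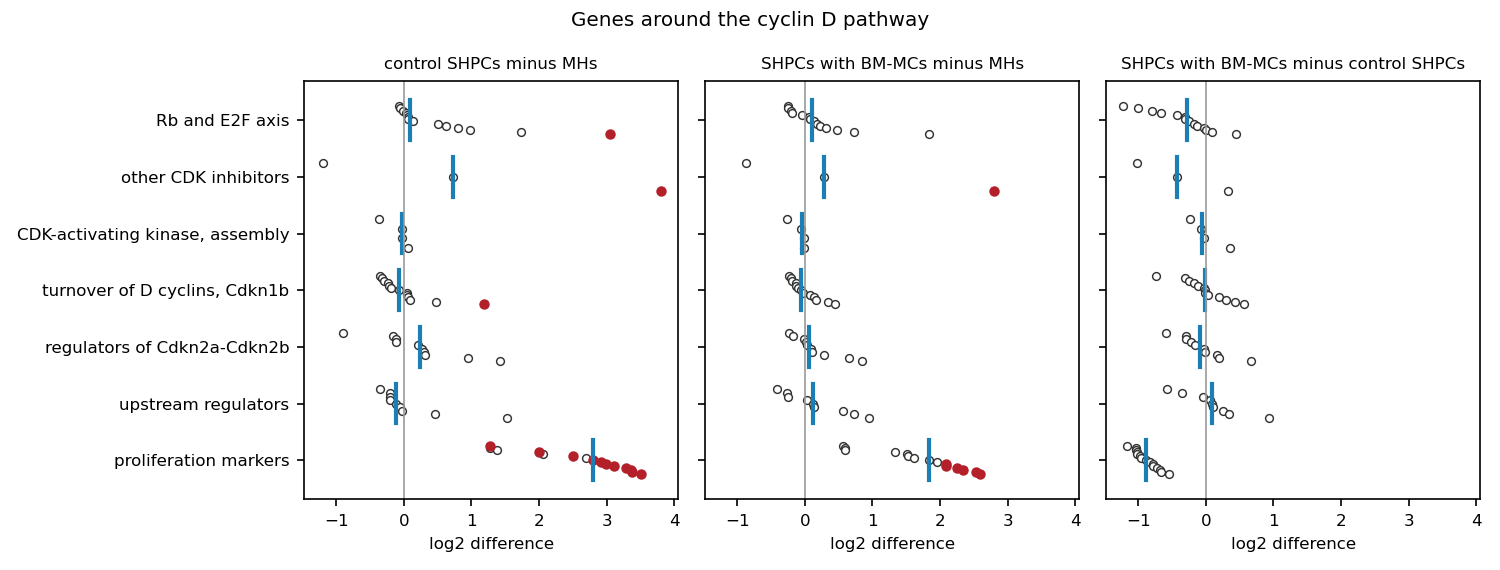
Log2 difference of every tested gene of the 7 lists in the 3 comparisons (points), with the genes past an adjusted p of 0.05 in limma in red and the median of each list as a blue bar. In control SHPCs minus MHs, all 15 proliferation genes lie above 0 around a median of 2.80, while the medians of the other lists lie between -0.12 and 0.72.

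The patterns most like that of Cdkn2c over the 8 samples, among 18467 probes with a gene name, were those of Zfp275 (Pearson r = 0.991), Bex4 (r = 0.988) and Aurkb (r = 0.986), a description over samples that share groups, with no test. Bex4 read -4.64 and -4.28 in the MHs, -1.97, -2.14 and -2.27 in control SHPCs, and -3.02, -3.94 and -2.31 with BM-MCs. Zfp275 read -3.22 and -2.91, then -2.32, -2.22 and -2.27, then -2.60, -2.76 and -2.30. In both, BM-MC replicate 2 was the lowest of its group and replicate 3 at the level of the controls, as in Cdkn2c. This likeness follows from how the genes were chosen. Cdkn2c itself was not well above background in MH replicate 1 and BM-MC replicate 2, so the exact ranks are uncertain. Aurkb, a kinase of mitosis from the proliferation list, was not well above background in either MH sample and was so in 1 of the 3 BM-MC samples.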

How the data were processed

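RNA of laser-captured cells from 8 samples was measured on 1-colour Agilent arrays, scanned and extracted with Feature Extraction 10.7 per the labels. The authors deposited scanner files and a value table of linear intensity per feature, which held the background-subtracted processed signal. The file of control SHPC replicate 2 was partial, with marks for 19479 gene spots against 58717 on each other array. Its marks were not used in the filter, and its spots without marks could not be screened for outliers. Each array's log2 signals were set relative to its 75th percentile, after which outlier-marked spots were removed and the spots of each probe averaged. The sums of cell type markers kept the outlier-marked spots. A probe was tested if 3 or more of the 7 completely marked arrays had it well above background (23111 probes), using R 4.3.3 and the lmFit and eBayes functions of limma 3.58.1. P-values were adjusted over these probes by Benjamini-Hochberg, with a threshold of 0.05. The SHPC groups were compared on their 6 samples, and both were compared with MHs in a single fit of all 8. A gene was read by its brightest tested probe. Groups followed the labels, and replicate numbers were not used to pair samples in the main fits, as no label links samples to rats. Alternatives changed scaling, background correction, filter, outliers, floor, block, weights, trend and samples, and added the t-test of the methods. The setting called normexp joined normexp background correction to quantile normalization and left out control SHPC replicate 2. The members and lists were chosen with earlier results of these data known. All members were named, and of each list the genes that passed or, failing that, the 2 with the largest limma statistic in each comparison, from which those described were drawn; the 3 probes most like Cdkn2c were taken by Pearson correlation. The scripts were tested on simulated data.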

Additional observations from a re-analysis of the deposited data

How the results depend on the processing

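Of the values for the members, 463 kept their direction and side of the threshold under other settings and 206 with a sample left out, while 19 and 8 changed direction, none of which passed, and the others lost (7 and 6) or gained (8 and 0) a call. The members called in control SHPCs minus MHs (1, Cdkn2c) were 0 with quantile normalization, no filter, a filter on every array (where Cdkn2c was not tested), outliers kept, normexp, the slide set block or the adjusted t-test of the methods, 2 with an intensity trend and 4 with that t-test unadjusted, and 0 to 1 with a sample left out. For Cdkn2c the difference ran from 0.96 to 2.79 and the adjusted p from 0.0067 to 0.29, and it passed in 10 of 23 other settings with an adjusted p. Elsewhere members were called in the unadjusted t-test (2 between the SHPC groups and 1 with BM-MCs minus MHs) and with an intensity trend (1 with BM-MCs minus MHs). Of the values for the list genes named, 80 lost a call under other settings and 64 with a sample left out, 33 and 5 gained one, and 3 and 1 changed direction. The cause was not tested.

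Probes called between the SHPC groups (5) were 213 with no scaling, 22 in a fit of all samples, 33 with an intensity trend, 359 with array weights, 3 with the filter on every array, the floor or normexp, 0 without a filter, in the adjusted t-test or within the second slide set, 3453 in the unadjusted t-test and 0 to 530 with a sample left out (530 without control replicate 3). With the slide set as a block 1 was higher and 4 were lower, where 5 and 0 had been. Probes called in control SHPCs minus MHs (262) were 136 without a filter, 124 with normexp (which also changed normalization and left out control replicate 2), 559 with an intensity trend, 500 with array weights, 415 within the first slide set, 4034 in the t-test and 0 after its adjustment, and 55 to 523 with a sample left out (55 without MH replicate 1, 97 without control replicate 2, 523 without BM-MC replicate 3). Probes called with BM-MCs minus MHs (78) were 50 with median scaling, 7 with quantile normalization, 1 without a filter, 3 with normexp or the slide set block (all lower without a filter or with the block, where 74 had been higher and 4 lower), 0 in a fit of those 2 groups alone, 130 with an intensity trend, 2137 in the t-test and 0 after its adjustment, and 0 to 115 with a sample left out. The within-set fits were chosen after seeing the data. Median scaling moved the median of all probes by -0.19 between the SHPC groups and by -0.20 with BM-MCs minus MHs.

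Same-numbered control and BM-MC samples had residual correlations of 0.13, 0.078 and 0.17. Of their pairs with other numbers, control replicate 2 with BM-MC replicate 1 was at 0.082, and the rest lay between -0.15 and -0.026. Same-numbered pairs with MHs were at most 0.051, but the 2 MHs have mirrored residuals, so these pairs cannot decide. Whether the numbers pair samples was thus not settled. With the replicate number as a block, 0, 159 and 0 probes were called in the order above, and 0 members, with Cdkn2c at 2.23 (adjusted p = 0.11 in limma).

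Differences that changed sign between the SHPC groups were Cdk6 (-0.078), Cdkn1b (-0.14) and Cdkn2a (-0.047) with median scaling, Cdkn2a with quantile normalization (-0.082) and normexp (-0.0013), Ccnd3 with outliers kept (0.19), Ccnd2 with normexp (-0.14), and with the slide set block or within the second set Ccnd2 (-0.17) and Cdkn1b (-0.11). The normexp setting also applied quantile normalization and left out control replicate 2, so its sign changes cannot be assigned to background correction alone. Cdkn1b also did so with probes averaged (-0.050) and without control replicate 1 (-0.0067), BM-MC replicate 1 (-0.00093) or 3 (-0.050), in a range up to 0.21, and Ccnd2 without control replicate 2 (-0.068, in a range up to 0.37). In control SHPCs minus MHs they were Cdc37 with quantile normalization (-0.042), no scaling (-0.026) and normexp (-0.069), Ccnd3 (-0.022) and Cdkn2a (-0.0083) with no scaling, and Cdkn2a (-0.25), Cdkn2b (-0.080) and Cdc37 (-0.018) without MH replicate 2, in ranges up to 0.41, 0.42 and 0.14. With BM-MCs minus MHs they were Cdk4 with median scaling (-0.11) and the slide set block (-0.037), Cdkn2a with quantile normalization (-0.027), Ccnd3 with outliers kept (0.26), Cdkn2b with the slide set block (0.10), and Cdk6 (0.020, in a range from -0.42) and Cdkn2a (-0.11, in a range up to 0.56) without MH replicate 2.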
